A study of Arabidopsis thaliana with 6 samples.

Results

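The GRP3 cluster is a group of glycine-rich protein genes that lie close together on chromosome 2 of Arabidopsis. The 6 loci described here are GRP3S (AT2G05380), GRP9 (AT2G05440), AT2G05510, GRP3 (AT2G05520), AT2G05530 and AT2G05540. They were chosen by locus around GRP3S, which was itself selected on its ratio of frb1-1 to wild-type signal on these arrays. A gene counted as measured only where the annotation of the array, or the table of changed genes that accompanies the paper, names a probe set for it alone. This held for 3 of the 6, GRP3S, AT2G05530 and AT2G05540, out of 22746 probe sets in all. GRP9, AT2G05510 and GRP3 have no probe set named for them alone in the sources used, so that no value is given for these genes here. Whether probe sets shared by several genes, or without a name, measure them was not examined.

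Glycine-rich proteins carry long runs of glycine-rich repeats, and many of them are secreted into the cell wall. GRP3 is known to bind the outer domain of the wall-associated kinase WAK1, a receptor at the plasma membrane that also binds pectin. GRP3S is the short form of this protein and is encoded by a gene of its own. GRP9 has been described as a partner of an enzyme of lignin synthesis. No role is given here for AT2G05510, AT2G05530 or AT2G05540 beyond their membership of the cluster.

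The arrays compared frb1-1 seedlings with wild-type FRB1 seedlings, 3 arrays each, to find transcripts that differ when FRB1, a Golgi protein needed for cell adhesion, is impaired. Both groups were whole Col-0 seedlings, 10 days old, grown under constant light at 21 °C on 0.5-strength MS medium after 4 days in the cold, with no other treatment. frb1-1 carries a T-DNA in the upstream region of AT5G01100 (FRB1), is described in the study as a partial loss of function, and is the only mutant line on these arrays. The labels call the replicates biological and do not say whether they were separate sowings, so that the errors given here measure the spread between these samples.

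Transcripts were measured by probe sets, which are sets of short oligonucleotides, and the values are their signal intensities on the linear scale of MAS 5.0. Arrays correlated from 0.918 to 0.972 within a genotype and from 0.920 to 0.962 between genotypes, over log2 signals. FRB1 itself has no named probe set here, and the sample labels were therefore not checked with its level. The named markers of green tissue (RCA) and root (PYK10 and EXPA7) were well above the minimum signal on all 6 arrays. The other members of these marker lists have no named probe set.

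GRP3S had the higher ratio of frb1-1 to wild-type signal among the measured genes of the cluster. Its signal was 12185, 13021 and 10006 in frb1-1 seedlings, against 2210, 3246 and 3293 in wild-type seedlings. Every frb1-1 array was above every wild-type array, so that the groups did not overlap. The mean was 11737 ± 1556 in frb1-1 and 2916 ± 612 in the wild type (SD, n = 3 each), a ratio of mean signals of 4.02. On the log2 scale the difference of means was 2.02 (limma standard error 0.21). It was the 28th highest of the 15218 probe sets that passed the minimum signal, a mean log2 signal of at least 6. The standard errors of log2 differences given here come from the limma fit described below, in which the variance is shared between probe sets. They are thus not drawn from the arrays of each gene alone. In RNA of whole seedlings, more cells that express a gene and more of its RNA in each cell cannot be told apart.

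GRP3S is in this group because the paper lists it among genes that differ at least 2-fold on these same arrays. Its difference is therefore a description, and no test is given for it. Only the signal of GRP3S lies inside that 2-fold limit. Outside it are AT2G05540, with a ratio of 1.42, and AT2G05530, with a ratio of 0.636. Whether the oligonucleotides for GRP3S also bind transcripts of GRP3 or of other members was not tested, since their sequences were not analysed here.

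AT2G05540, the last gene of the cluster, was strongly expressed in both genotypes. Its signal was 6517, 8243 and 4898 in frb1-1 seedlings, against 4583, 5840 and 3440 in wild-type seedlings. The groups overlapped, because the highest wild-type array was above the lowest frb1-1 array. The mean was 6553 ± 1673 in frb1-1 and 4621 ± 1201 in the wild type (SD, n = 3 each). The difference of mean log2 signals was 0.51 (limma standard error 0.25), which ranked 1184th from the top of the tested probe sets. Without wild-type replicate 3 the difference was 0.31, and without frb1-1 replicate 2 it was 0.32. The SD of the log2 signal was 0.38 within each genotype, compared with 0.20 in frb1-1 and 0.33 in the wild type for GRP3S.

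AT2G05530, which lies beside AT2G05540, had a low signal in both genotypes. The values were 49.6, 24.7 and 44.6 in frb1-1 seedlings, against 73.8, 25.9 and 87.3 in wild-type seedlings. The groups overlapped, and the mean was 39.6 ± 13.2 in frb1-1 and 62.3 ± 32.3 in the wild type (SD, n = 3 each). The mean log2 signal over all arrays, 5.51, was below the minimum of 6, so the gene was not among the tested probe sets. It entered a fit only where the minimum was lifted, and limma did not call it there.

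**Figure D1:**
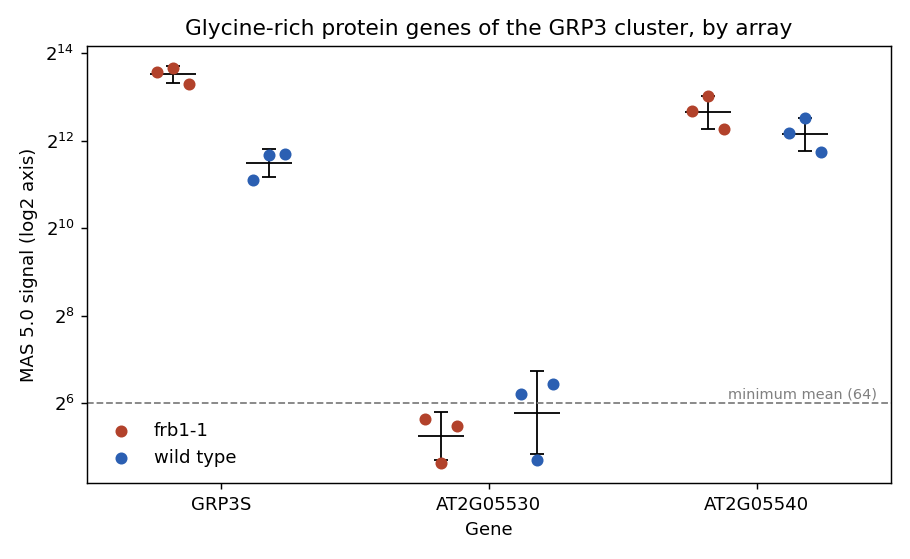
Signal of each measured gene of the GRP3 cluster on a log2 axis, with 1 point per array, frb1-1 in red on the left and wild type in blue on the right. The bars show the mean and SD of the log2 signal (n = 3), and the dashed line the minimum mean signal of 64. The genotypes are apart for GRP3S, overlap for AT2G05540 and lie around the minimum for AT2G05530.

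The members were set beside all other probe sets in a single limma fit, in which the variance is shared between probe sets, and p-values were adjusted over the whole table by the Benjamini-Hochberg method. Of the tested probe sets, 0.368% passed an adjusted p of 0.05 in either direction, and 0.276% passed it as higher in frb1-1. In 10.9% of tested probe sets the genotypes did not overlap, and this held for 1 of the 2 members in the fit, GRP3S. A ratio of mean signals of at least 2 in frb1-1 was found for 1.18% of the tested probe sets. GRP3S has such a ratio because that limit chose it, and its probe set is named only through the paper's table, so that nothing is read from its place among these shares.

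Signals of some seed genes also differed between the genotypes. Of a list of 10 seed genes, 3 have a named probe set, CRA1 (a storage globulin), M17 (a late embryogenesis abundant protein) and PER1 (a peroxiredoxin). The summed signal of these genes was 7037 to 10392 on frb1-1 arrays and 747 to 1128 on wild-type arrays, so the genotypes did not overlap. All 3 stand in the paper's table of changed genes, which was drawn up from these arrays, and the probe sets of CRA1 and PER1 are named only through it. Their values are therefore a description with no test, and no probe set is named for the other 7 seed genes. The root genes PYK10 and EXPA7 summed to 18368 to 26665 on frb1-1 arrays and 18945 to 21641 on wild-type arrays. Nearly all of this sum was PYK10, as EXPA7 was at 338 to 482 on frb1-1 arrays and 318 to 395 on wild-type arrays. RCA, the Rubisco activase of green tissue, had a signal of 16255 to 23642 on frb1-1 arrays and 22730 to 31295 on wild-type arrays. None of these markers was at 0, and the part of these tissues in the level of GRP3S was not tested.

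The pattern of GRP3S over the 6 arrays was closest to that of AT3G02480, among 8303 tested probe sets with 1 named gene outside the cluster. Likeness was measured as the root mean square difference of log2 signals after centring each gene on its own mean, so that a small value means that 2 genes moved by similar amounts on the same arrays. AT3G02480, annotated as related to an ABA-responsive protein, had a value of 0.15 log2 units, with a mean signal of 2852 in frb1-1 and 605 in the wild type. ERF104, an ethylene response factor, followed at 0.20 (mean signals of 1619 in frb1-1 and 446 in the wild type). The next were AT5G66650 at 0.25, M17 at 0.28 and APS4, an ATP sulfurylase of sulfate assimilation, also at 0.28. Their log2 fold changes ran from 1.50 for APS4 to 2.41 for M17, which the measure itself keeps close to that of GRP3S. In the paper's table of changed genes, drawn up from these arrays, stand 4 of the 5 genes, AT5G66650 being the exception. Nothing is read from this count, since the measure favours genes with differences large enough for that table.

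The 5 genes closest to AT2G05540 by the same measure were AT3G05320, AT3G26380, AT4G19880, AT4G36210 and AT3G09250. Their root mean square differences were 0.09 to 0.11 log2 units. Their log2 fold changes were 0.38 to 0.51, which the measure itself keeps close to that of AT2G05540. None of them stands in the paper's table. AT2G05540 was added to this search after its values were seen, because GRP3 has no named probe set.

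None of the tested genes around the cluster passed the test. In the gene order of the TAIR10.1 annotation, 44 protein-coding genes other than the members lie within the cluster or among the 20 genes on either side, and 17 of these have a named probe set. The signal of 8 genes reached the minimum, and limma called 0 of these at an adjusted p of 0.05 in either direction. Of all tested probe sets 0.368% were called, so that 0 of 8 is near the share of the whole table. At an unadjusted limma p under 0.05 the count was 0 as well, beside 587 higher and 320 lower of all 15218. The median log2 fold change of the 8 genes was 0.03, compared with 0.01 over all tested probe sets. AT2G05120 had the highest log2 fold change, 0.32 (SE 0.33), and AT2G05260 the lowest, -0.25 (SE 0.24), with a limma adjusted p of 0.99998 for both. AT2G05810 had 0.25 (SE 0.39), with a limma adjusted p of 0.99998 as well. The nearest tested gene to AT2G05540 is AT2G05590, with a signal of 423, 416 and 448 in frb1-1 seedlings, against 544, 254 and 508 in wild-type seedlings.

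Between GRP3S and GRP9 lie 4 other genes, and the 5 members from GRP9 to AT2G05540 follow each other without a gap in this order. Of the 4, AT2G05400 and AT2G05430 have a named probe set, and both had mean signals below 64 in each genotype. The gene beside GRP3S on its other side, AT2G05370, was at 5.05, 7.09 and 9.84 in frb1-1 seedlings, against 5.98, 18.7 and 13.3 in wild-type seedlings. Neither of the genes directly next to GRP3S thus reached the minimum signal. AT2G05580 follows AT2G05540 and is also on the list of other glycine-rich protein genes below. It had a mean signal of 42.3 ± 25.8 in frb1-1 and 60.3 ± 8.49 in the wild type (SD, n = 3 each) and was not tested.

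**Figure D2:**
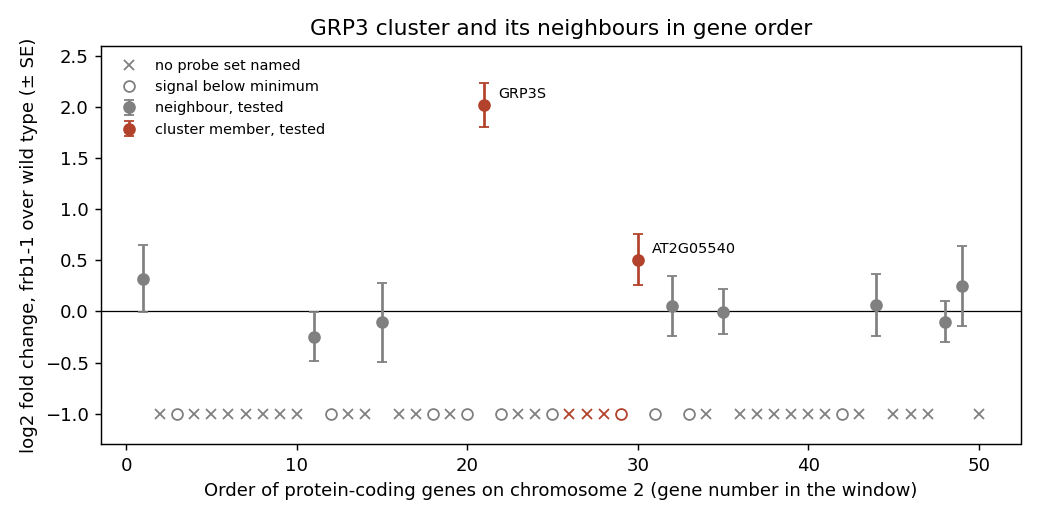
Log2 fold change, frb1-1 over wild type, of the tested genes in the window of 50 protein-coding genes around the GRP3 cluster. Bars are limma standard errors, and the x axis follows gene order and not distance. Members are in red and neighbours in grey, and genes that were not tested are drawn on the bottom row, as open circles where the signal was below the minimum and as crosses where no probe set is named. GRP3S stands at 2.02 and AT2G05540 at 0.51, and the neighbours lie between -0.25 and 0.32.

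Other glycine-rich protein genes were compared from a list of 41 loci outside the cluster. The list holds RNA-binding proteins such as GRP7 and oleosin-like proteins of pollen, which have no named probe set here, and loci listed as glycine-rich from general knowledge. Of the 23 genes with a named probe set 17 were tested. The RefSeq gene names used here call 0 of these 23 glycine-rich, and their proteins were not analysed, so that the values below hold for the loci as listed. With limma 0 of the 17 passed an adjusted p of 0.05 in either direction, beside 0.368% of all tested probe sets. At an unadjusted limma p under 0.05 there were 2 higher and 1 lower. Of all 15218 tested probe sets, 587 were higher and 320 lower at that limit. The median log2 fold change of the 17 was 0.07, beside 0.01 over all tested probe sets. In 5 of the 17 the frb1-1 arrays all lay above the wild-type arrays, compared with 6.26% of all tested probe sets. In none of the 17 did they all lie below. They did so for AT5G49350, a listed gene left out because its mean log2 signal of 5.95 was under the minimum. Its signal was 22.2, 55.8 and 51.3 in frb1-1 seedlings, against 98.9, 86.0 and 104 in wild-type seedlings.

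AT1G04800 had the highest value of this list. Its signal was 620, 443 and 494 in frb1-1 seedlings, against 207, 277 and 293 in wild-type seedlings, and the groups did not overlap. The log2 fold change of 1.003 (SE 0.24) did not pass the test over all probe sets, with a limma adjusted p of 0.178. AT1G04800 also stands in the paper's table of changed genes and is the only gene of the list that does. AT4G21620 had a signal of 2663, 2729 and 2781 in frb1-1 seedlings, against 1590, 1892 and 2481 in wild-type seedlings. Here the groups did not overlap either, and the log2 fold change was 0.48 (SE 0.21), with a limma adjusted p of 0.827.

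AT1G67870 had the lowest log2 fold change among the 17 tested genes of the list. Its signal was 1888, 2339 and 1402 in frb1-1 seedlings, against 3158, 2891 and 2276 in wild-type seedlings. The groups overlapped, since the highest frb1-1 array was above the lowest wild-type array. The log2 fold change was -0.58 (SE 0.24), with a limma adjusted p of 0.756.

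**Figure D3:**
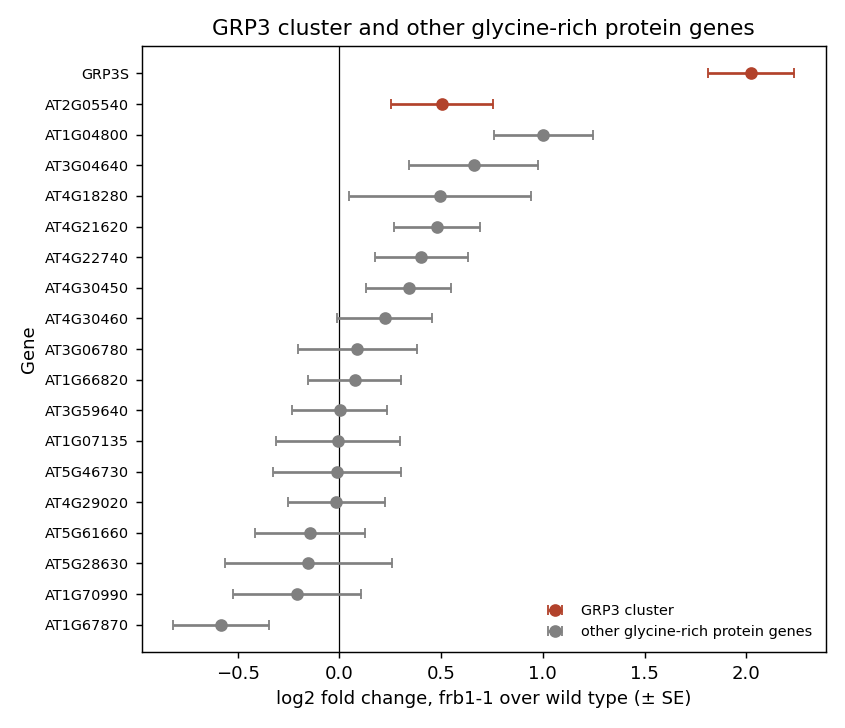
Log2 fold change, frb1-1 over wild type, with limma standard errors. Red marks the 2 tested genes of the GRP3 cluster, and grey the 17 tested genes of the list of other glycine-rich protein genes. Genes are in order of value within each group. GRP3S, which was chosen for its ratio on these arrays, lies at 2.02, and the highest tested gene of the list, AT1G04800, at 1.003. Because of that choice nothing is read from the distance between them. AT2G05540 at 0.51 lies within the range of the tested genes of the list.

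Partners described for GRP3 and GRP9, and genes related to these partners, were not analysed here. A list of 8 such genes was drawn up, the wall-associated kinases WAK1 to WAK5, the phosphatase KAPP of the complex of WAK1 and GRP3, and the cinnamyl alcohol dehydrogenases CAD4 and CAD5 of lignin synthesis. A probe set for that gene alone is named here for 0 of the 8.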

How the data were processed

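RNA of whole seedlings was hybridized to 6 Affymetrix ATH1 arrays, and the number of arrays limits the precision. The deposited intensity values are MAS 5.0 signals per probe set on a linear scale, which the authors scaled to a target of 500; the removal of absent probe sets in the study is not applied to the table. Of 22810 probe sets the 64 controls were left out. A minimum of 6 for the mean log2 signal left 15218, which were fitted on the log2 scale with limma 3.58.1 in R 4.3.3, using lmFit and then eBayes with a trend of variance on mean signal. All 6 arrays entered the fit, with no covariate and no pseudocount. A filter on the mean can drop a gene that is silent in 1 genotype. The script was tested on simulated data.

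Names came from the platform annotation (13513 probe sets with 1 gene, 503 with several) and, for 52 more, GRP3S among them, from the paper's table of changed genes. Fold changes and p-values in that table were not used. Groups came from the sample titles. The build behind the array is not given in the sources used here, so only gene order was taken from TAIR10.1.

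Named are all measured members, up to 3 genes of each other list by p, genes past the threshold, and the 5 genes closest in pattern. AT2G05370, AT2G05400, AT2G05430, AT2G05580, AT2G05590, AT5G49350 and the genes closest to AT2G05540 were named after their values were seen. The members and lists were chosen with earlier results of these data known. Alternatives were quantile normalization, median scaling, other minimum signals, a pseudocount, a replicate block, no trend, array weights and each array left out.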

Additional observations from a re-analysis of the deposited data

How the results depend on the processing

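Across 15 alternatives GRP3S had a positive log2 fold change (1.84 to 2.13), and that of AT2G05540 was positive as well (0.31 to 0.70). The ends of both ranges came from leaving out 1 array. The number of genes called by limma stayed at 0 under each for the list of other glycine-rich protein genes and for the chromosome 2 neighbours. As 0.368% of all tested probe sets were called in the main fit, 0 is near that share for lists this short, and nothing is read from it. The same-numbered arrays did not deviate together in every case (correlations of 0.04, 0.28 and 0.33 for replicates 1, 2 and 3). As frb1-1 replicate 1 was closest to wild-type replicate 2 (0.11), the numbers were not taken to pair the samples. Replicates 2 and 3 were each closest to their own number. The correlation was -0.31 for frb1-1 replicate 2 with wild-type replicate 3, and -0.30 for frb1-1 replicate 3 with wild-type replicate 2. Whether the numbers mark shared handling was not tested. With the replicate block the calls over all probe sets went to 107 higher and 31 lower, beside 42 and 14 without it, and both lists had 0 calls with it as without it. The ratio of same-numbered arrays of AT2G05540 was 1.42, 1.41 and 1.42, and the standard error of its log2 fold change was 0.17 with the block and 0.25 without. Over all probe sets 19 higher and 9 lower were called without the mean-variance trend, 98 and 24 with array weights, and 11 to 66 higher and 5 to 16 lower without 1 array. Signals near the minimum, as those of AT2G05530, limit what can be read.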
